A study of Mus musculus with 6 samples.

Results

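The genes described here are 46 enzymes and redox carriers that detoxify reactive oxygen and electrophiles, taken from 20239 named genes measured in mouse heart ventricle. They were chosen by symbol and not by their values. The set holds the glutathione transferases whose symbols start with Gsta, Gstm, Gstp, Gstt, Gsto, Gstk or Gstz, the genes of the glutathione peroxidases (Gpx), peroxiredoxins (Prdx) and superoxide dismutases (Sod), and Txn1, Txn2, Txnrd1, Txnrd2, Nqo1, Hmox1, Gclc, Gclm, Gsr and Cat. Prdx5 and Prdx6 were not analysed here. By their labels, 3 arrays came from Hspa4-/- mice, without Hspa4, a cytosolic chaperone of the Hsp110 family, and 3 from Hspa4+/+ (wild-type) mice. All 6 were labelled as males of strain 129/Sv aged 3.5 weeks, and no treatment is named in the labels. The labels give 3 mice per genotype, so each array was taken as 1 mouse. Expression was read on Affymetrix Mouse Gene 1.0 ST arrays from ventricle RNA, so every value is a log2 level over all cell types of the tissue.

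Glutathione is made from its amino acids by a ligase whose catalytic and modifier subunits are encoded by Gclc and Gclm, and glutathione peroxidases use it to reduce peroxides. Peroxiredoxins do the same work with electrons from thioredoxin, which thioredoxin reductases recharge from NADPH. Glutathione transferases join glutathione to reactive compounds. The transcription factor NRF2 (gene Nfe2l2), held down by KEAP1 until oxidants or electrophiles modify it, binds the antioxidant response element and raises many of these genes. In the heart, which burns oxygen in densely packed mitochondria, the mitochondrial enzymes encoded by Sod2, Prdx3, Txn2 and Txnrd2 deal with superoxide and peroxide where the respiratory chain makes them.

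None of the 46 genes passed the test of the arrays labelled Hspa4-/- against wild type. With all 6 arrays, 0 of 46 had an adjusted p under 0.05, beside 0% of all genes, and their adjusted p lay between 0.355 and 0.998 (limma, Benjamini-Hochberg over 20239 genes). The differences ran from −0.31 (Gsta2) to 0.50 (Gstp1) on the log2 scale, so none reached 1.5-fold. The median difference was −0.0024 over the 46 genes and −0.0094 over all genes. Higher means in the arrays labelled Hspa4-/- were found for 22 of the 46 genes, or 47.8%, against 45.8% of all genes.

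The genes with the smallest p were the mitochondrial and cytosolic thioredoxin reductases Txnrd2 and Txnrd1, the mitochondrial peroxiredoxin Prdx3 and the alpha-class transferase Gsta2, all with lower means in the arrays labelled Hspa4-/-, and the pi-class transferase Gstp1, with a higher mean. These 5 genes of 46 had an unadjusted p under 0.05 (10.9%), beside 11.2% of all genes, so the share lay near the background. The 1 higher gene stood beside 5.64% of all genes and the 4 lower ones beside 5.53%. The count rested on few arrays. It was 9 without the array labelled Hspa4-/- replicate 1, 0 without replicate 2 of that label, 3 without wild-type replicate 1, 9 without wild-type replicate 2 and 3 without wild-type replicate 3. In 6 of the 46 genes (13.0%) the values of the 3 arrays of one label lay wholly above or below those of the other, beside 15.1% of all genes. Of these, 2 lay above wild type (Gpx7 and Gstt2), beside 6.08% of all genes.

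On 1 array, Hspa4-/- replicate 1, the level of Hspa4 was close to wild type. Hspa4 read 9.33, 6.63 and 6.75 on the arrays labelled Hspa4-/- and 9.74, 9.50 and 9.48 in wild type. Over all 6 arrays the difference was −2.01 (SE 0.58; limma, adjusted p = 0.263), and its p was 0.1 by exact permutation (two-sided), which is the lowest value possible with 3 against 3. Without replicate 1 it was −2.89 (SE 0.10; limma, adjusted p = 9.37e-06). Xist, an RNA of female cells, also read 7.68 on that array, against 5.51 to 5.69 on the other 5, all labelled male. The Y-linked genes Uty and Eif2s3y read 7.92 and 7.96 there, against 8.15 to 8.57 and 8.23 to 8.39 on the other 5, so this array gave both Xist and Y-linked signal. Values are on 6 arrays unless 5 arrays are named, which are those left without it.

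On those 5 arrays, 2 labelled Hspa4-/- against 3 wild type, again 0 of the 46 genes passed, beside 0.440% of all genes (limma, adjusted p between 0.156 and 0.999 over the 46). An unadjusted p under 0.05 was found for 9 genes (19.6%), beside 14.9% of all genes. They were Gstp1, Gstk1, Gstm5 and Gstt2 with higher means and Gsta2, Prdx3, Txnrd1, Txnrd2 and Sod1 with lower means in the arrays labelled Hspa4-/-. Of all genes, 8.55% were higher and 6.36% lower by that measure. That count was 3 without the array labelled Hspa4-/- replicate 2, which leaves 1 array of that label, and 15 without wild-type replicate 2. The groups did not overlap in 14 genes (30.4%), beside 33.3% of all genes: 7 lay above wild type (14.4% of all genes) and 7 below (18.9% of all genes). Means were higher for 26 of the 46 genes, beside 43.3% of all genes. The median difference was 0.03 over the 46 genes and −0.02 over all genes.

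**Figure D1:**
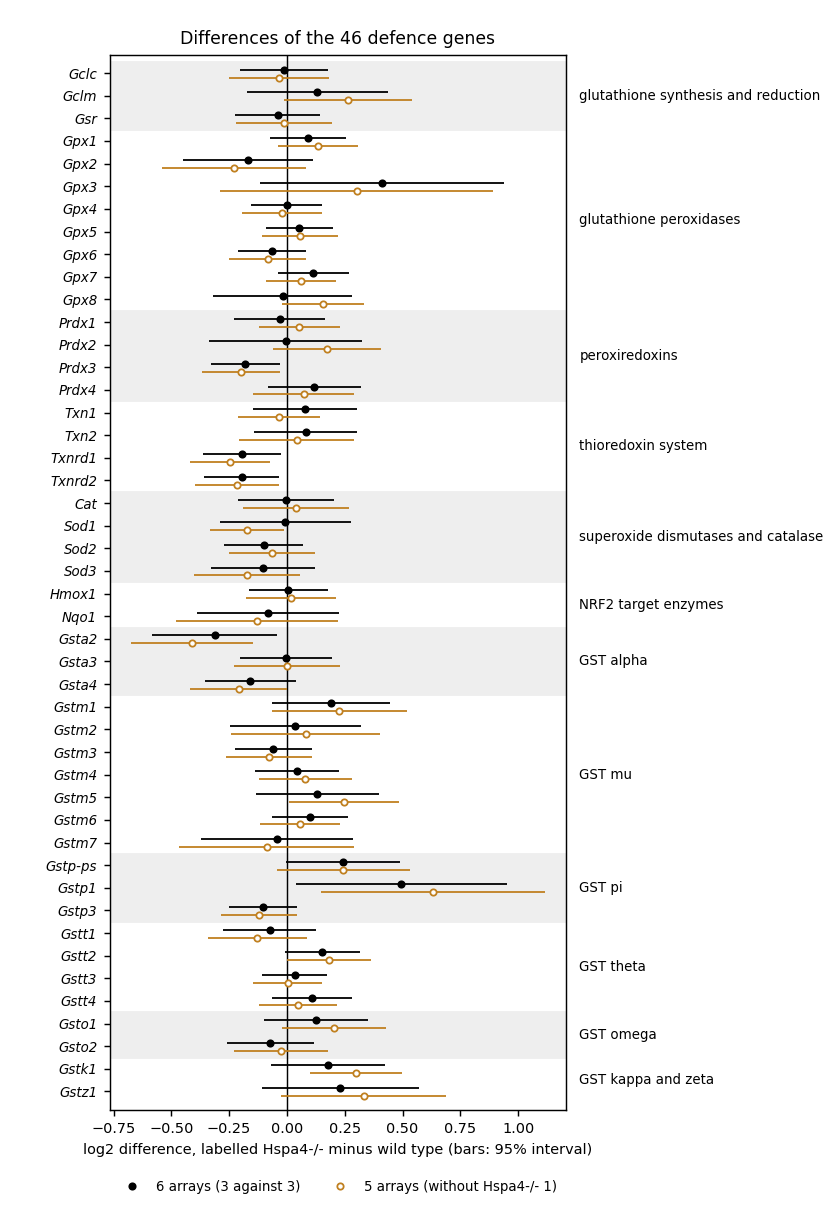
Log2 difference of Hspa4-/- arrays minus wild type (horizontal axis) for each of the 46 genes, grouped by role, with limma's 95% interval as a bar. Filled points are all 6 arrays and open points the 5 arrays without Hspa4-/- replicate 1. On 6 arrays the intervals of Gstp1, Gsta2, Prdx3, Txnrd1 and Txnrd2 leave out 0 and those of the other genes include it.

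The intervals describe the difference between the labels, and on 6 arrays they count Hspa4-/- replicate 1, with its near wild-type Hspa4, by its label. For 44 of the 46 genes (95.7%) the 95% interval of the difference on 6 arrays, taken without adjustment for the number of genes, stayed within 1.5-fold in both directions, against 97.3% of all genes. The exceptions were Gpx3 and Gstp1. On 5 arrays it stayed within 1.5-fold for 42 genes (91.3%), against 96.0% of all genes. Gsta2 (−0.68 to −0.15) and Gstz1 (−0.02 to 0.69) were then exceptions as well. In 39 of the 46 genes (84.8%) the difference between the labels was smaller than the range of the 3 wild-type arrays, which was also so for 79.4% of all genes.

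The sequence that NRF2 reads was looked up in the promoters to see which of these genes carry it close to the start. The core of the antioxidant response element, TGACNNNGC, was searched on both strands in the 250 bases before each start of transcription in RefSeq's mouse annotation (GRCm38.p6). Of the 46 genes, 39 were in that promoter table and 7 of them (17.9%) held the motif, against 12.5% of the 15651 tested genes in the table and 11.5% of all 27025 genes there. The stretch around each match is printed 5′ to 3′ on the strand of the gene, with the match in capitals. In Gclm, Prdx1, Sod1 and Txnrd1 the motif lies on the opposite strand, so its reverse complement is in capitals.
Gclm (chr3:122245387-122245467, + strand): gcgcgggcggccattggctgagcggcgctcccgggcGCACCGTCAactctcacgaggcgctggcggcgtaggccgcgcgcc
Txnrd1 (chr10:82859078-82859158, + strand): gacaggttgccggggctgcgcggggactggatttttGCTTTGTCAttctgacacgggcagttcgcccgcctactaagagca
Prdx1 (chr4:116685430-116685510, + strand): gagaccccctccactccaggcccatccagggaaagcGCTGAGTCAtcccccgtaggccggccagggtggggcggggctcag
Sod1 (chr16:90220670-90220750, + strand): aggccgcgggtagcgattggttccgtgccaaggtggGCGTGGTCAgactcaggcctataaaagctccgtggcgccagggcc
Gsta3 (chr1:21240428-21240508, + strand): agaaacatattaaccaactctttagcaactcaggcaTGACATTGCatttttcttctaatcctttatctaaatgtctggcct
Gstm5 (chr3:107895776-107895853, + strand): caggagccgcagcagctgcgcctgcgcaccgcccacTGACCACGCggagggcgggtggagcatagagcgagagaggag
Gstm7 (chr3:107931699-107931779, - strand): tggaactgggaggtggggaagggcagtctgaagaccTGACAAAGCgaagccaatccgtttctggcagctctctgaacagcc

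The 7 genes with the motif had no common direction: on 6 arrays 2 had a higher mean in the arrays labelled Hspa4-/- and 5 a lower one, between −0.20 (Txnrd1) and 0.13 (Gclm). Their median difference was −0.0064, against 0.03 for the 32 genes without a match, and on 5 arrays the medians were 0.0004 and 0.04. A match is a description of letters and not of binding, and elements farther from the start were not searched.

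Of the genes for glutathione synthesis and recycling, the modifier subunit Gclm varied most between arrays. It read 6.85, 7.37 and 7.12 on the arrays labelled Hspa4-/- and 6.94, 7.19 and 6.81 in wild type. Replicate 2 was the highest array of both labels, and the groups overlapped. The difference was 0.13 (SE 0.14; limma, adjusted p = 0.797), or 0.26 (SE 0.12; limma, adjusted p = 0.359) on 5 arrays. Without the array labelled Hspa4-/- replicate 2 it was 0.0025. Gclc, the catalytic subunit, read 7.95, 8.02 and 7.77 on the arrays labelled Hspa4-/- and 7.94, 8.01 and 7.83 in wild type. Its values overlapped almost entirely, with a difference of −0.01 (95% interval −0.20 to 0.18), or −0.03 on 5 arrays. Gsr, the reductase that regenerates glutathione from its oxidised form, read 7.59, 7.75 and 7.59 on the arrays labelled Hspa4-/- and 7.70, 7.79 and 7.55 in wild type, a difference of −0.04 (95% interval −0.22 to 0.14), or −0.01 on 5 arrays.

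Among the 8 glutathione peroxidases, Gpx3, the form secreted into plasma, had the largest standard error of the 46 genes. It read 9.73, 9.51 and 9.28 on the arrays labelled Hspa4-/- and 8.68, 9.73 and 8.87 in wild type. Wild-type replicate 2 was the highest of all 6 arrays, and the other wild-type arrays were the 2 lowest. The difference was 0.41 (SE 0.23; limma, adjusted p = 0.575) on 6 arrays and 0.30 (SE 0.26; limma, adjusted p = 0.643) on 5. On 6 arrays it was 0.20 without wild-type replicate 1 and 0.73 without wild-type replicate 2.

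Gpx1, the cytosolic and mitochondrial peroxidase, read 7.62, 7.78 and 7.72 on the arrays labelled Hspa4-/- and 7.55, 7.71 and 7.59 in wild type. The groups overlapped through wild-type replicate 2, and the difference was 0.09 (95% interval −0.07 to 0.25). On 5 arrays it was 0.13, without overlap (limma, adjusted p = 0.461). Gpx4, which reduces lipid peroxides within membranes and guards against ferroptosis, read 6.69, 6.64 and 6.62 on the arrays labelled Hspa4-/- and 6.64, 6.57 and 6.75 in wild type. Its difference was −0.0015 (95% interval −0.16 to 0.15), or −0.02 on 5 arrays. Of the others, Gpx7, a peroxidase of the endoplasmic reticulum, had values from 5.95 to 6.12 on the arrays labelled Hspa4-/- and from 5.87 to 5.93 in wild type, without overlap (difference 0.11; limma, adjusted p = 0.604), and differed by 0.06 on 5 arrays. Gpx8, its membrane-bound relative, read 6.83 on the array labelled Hspa4-/- replicate 1 and 7.26 and 7.44 on the others of that label, against 7.16 to 7.24 in wild type. Its difference was −0.02 on 6 arrays and 0.16 on 5, where the groups did not overlap (limma, adjusted p = 0.397). Gpx2, Gpx5 and Gpx6, known from gut, epididymis and olfactory tissue, differed by −0.17, 0.05 and −0.06, and on 5 arrays by −0.23, 0.06 and −0.08.

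**Figure D2:**
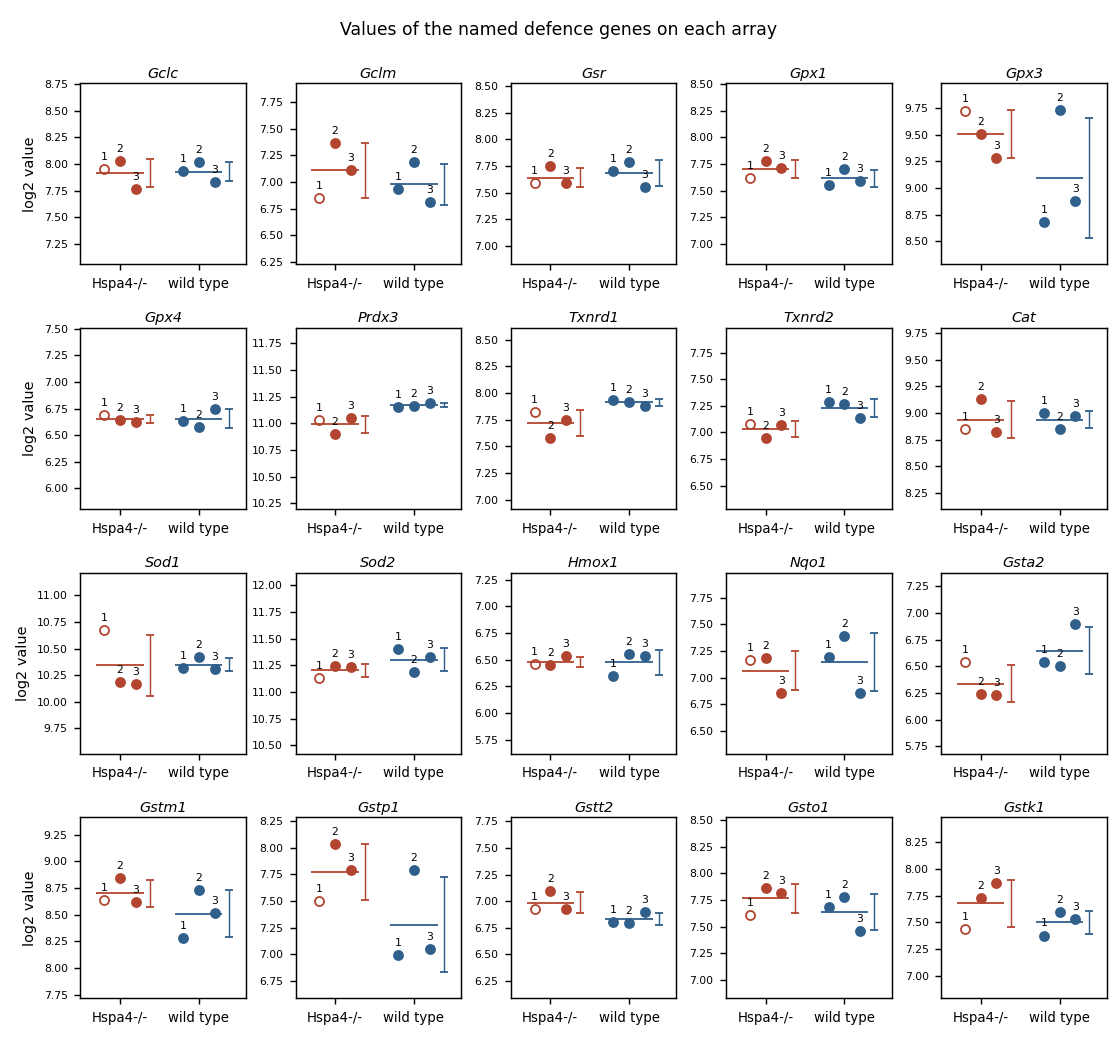
Log2 values of 20 of the 46 genes on each array, arrays labelled Hspa4-/- in red on the left (replicate 1 open) and wild type in blue on the right. Numbers are replicates, lines are group means, side bars are the SD (n = 3), and every panel has the same height on the log2 scale. Prdx3, Txnrd1, Txnrd2 and Gstt2 are the panels in which the groups do not overlap, and in Gpx3 and Gstp1 wild-type replicate 2 stands with the arrays labelled Hspa4-/-.

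The thioredoxin reductases and Prdx3 were lower in all 3 arrays labelled Hspa4-/- than in any wild-type array, by small amounts. Txnrd1, the cytosolic reductase, read 7.82, 7.58 and 7.75 on the arrays labelled Hspa4-/- and 7.94, 7.92 and 7.88 in wild type. The wild-type arrays lay within 0.06 of each other and the arrays labelled Hspa4-/- all lay below them. The mean was 1.15-fold lower (difference −0.20, SE 0.08; limma, adjusted p = 0.377), and 1.19-fold lower on 5 arrays (−0.25, SE 0.08; limma, adjusted p = 0.183).

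Txnrd2, the mitochondrial reductase, read 7.08, 6.95 and 7.07 on the arrays labelled Hspa4-/- and 7.29, 7.26 and 7.13 in wild type. The gap between the labels was narrowest at wild-type replicate 3. The mean was 1.15-fold lower (difference −0.20, SE 0.07; limma, adjusted p = 0.355), and 1.16-fold lower on 5 arrays (−0.22, SE 0.08; limma, adjusted p = 0.255). Prdx3, the peroxiredoxin of the mitochondrial matrix, read 11.03, 10.90 and 11.05 on the arrays labelled Hspa4-/- and 11.16, 11.16 and 11.19 in wild type. Its wild-type arrays lay within 0.04 of each other. The mean was 1.13-fold lower (difference −0.18, SE 0.07; limma, adjusted p = 0.358), and 1.15-fold lower on 5 arrays (−0.20, SE 0.07; limma, adjusted p = 0.257).

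Because their groups did not overlap, these genes had to keep their side in each leave-one-out fit, so that order adds no support. Their differences there ran from −0.25 to −0.13 for Txnrd1, −0.24 to −0.15 for Txnrd2 and −0.21 to −0.13 for Prdx3 on 6 arrays. In 4 of the 46 genes (8.70%), Txnrd1, Txnrd2, Prdx3 and Gstp3, the arrays labelled Hspa4-/- all lay below wild type, beside 9.07% of all genes. The carriers between reductase and peroxiredoxin did not share that order. Txn2, mitochondrial thioredoxin, ranged from 10.29 to 10.50 on the arrays labelled Hspa4-/- and from 10.20 to 10.54 in wild type (difference 0.08, 95% interval −0.14 to 0.30; 0.04 on 5 arrays). Txn1, cytosolic thioredoxin, ranged from 9.18 to 9.54 on the arrays labelled Hspa4-/- and from 9.13 to 9.30 in wild type (difference 0.08, and −0.03 on 5 arrays). Prdx1, Prdx2 and Prdx4, peroxiredoxins of the cytosol and, for Prdx4, the endoplasmic reticulum, differed by −0.03, −0.0056 and 0.12, with overlapping groups. The array labelled Hspa4-/- replicate 1 was the lowest of the 6 for Prdx1 and Prdx2 and the highest for Prdx4. On the 5 arrays without it the differences were 0.05, 0.17 and 0.07, so the sign turned for Prdx1 and Prdx2.

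Superoxide dismutases and catalase all had lower means on 6 arrays, by −0.10 (Sod3) to −0.0033 (Cat), and Sod1 depended on Hspa4-/- replicate 1. Sod1, the copper and zinc enzyme of the cytosol, read 10.67, 10.18 and 10.17 on the arrays labelled Hspa4-/- and 10.32, 10.42 and 10.31 in wild type. Replicate 1 labelled Hspa4-/- was the highest array and the other 2 of that label were the lowest. The difference was −0.0064 (SE 0.13; limma, adjusted p = 0.994) on 6 arrays and −0.17 (SE 0.07; limma, adjusted p = 0.302) on 5. On 6 arrays it was positive without Hspa4-/- replicate 2 (0.07), without Hspa4-/- replicate 3 (0.08) and without wild-type replicate 2 (0.03).

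Sod2, the manganese enzyme of mitochondria, read 11.13, 11.24 and 11.24 on the arrays labelled Hspa4-/- and 11.40, 11.18 and 11.33 in wild type. The groups overlapped through wild-type replicate 2, and the difference was −0.10 (95% interval −0.27 to 0.07), or −0.06 on 5 arrays. Sod3, the extracellular enzyme, differed by −0.10 (95% interval −0.33 to 0.12), or −0.17 on 5 arrays. Cat, the catalase of peroxisomes, read 8.85, 9.14 and 8.82 on the arrays labelled Hspa4-/- and 9.0, 8.85 and 8.97 in wild type, a difference of −0.0033 (95% interval −0.21 to 0.21), or 0.04 on 5 arrays.

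Nqo1 and Hmox1, commonly measured targets of NRF2, overlapped between the labels. Nqo1, a quinone reductase, read 7.16, 7.18 and 6.85 on the arrays labelled Hspa4-/- and 7.20, 7.39 and 6.86 in wild type. Replicate 3 was the lowest array of both labels, and the difference was −0.08 (95% interval −0.39 to 0.22), or −0.13 on 5 arrays. Hmox1, the inducible heme oxygenase, read 6.46, 6.45 and 6.54 on the arrays labelled Hspa4-/- and 6.34, 6.56 and 6.53 in wild type, a difference of 0.0058 (95% interval −0.16 to 0.18), or 0.02 on 5 arrays.

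The 21 glutathione transferase genes had a median difference of 0.04 on 6 arrays and 0.06 on 5, with 13 and 14 of them higher in the arrays labelled Hspa4-/-. The 25 other genes had medians of −0.0064 and −0.01. Gstp1 had the largest difference of the 46 genes. It read 7.50, 8.03 and 7.79 on the arrays labelled Hspa4-/- and 7.00, 7.79 and 7.05 in wild type. Wild-type replicate 2 stood level with the arrays labelled Hspa4-/-, and the other 2 wild-type arrays lay below every array labelled Hspa4-/-. The mean was 1.41-fold higher (difference 0.50, SE 0.20; limma, adjusted p = 0.408), and 1.55-fold higher on 5 arrays (0.63, SE 0.21; limma, adjusted p = 0.219). On 6 arrays the difference was 0.35 without wild-type replicate 1 and 0.75 without wild-type replicate 2.

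Leaving out wild-type replicate 2 from the 5 arrays was the only one of the settings tried in which any of the 46 genes passed. Gstp1 was then 1.85-fold higher in the 2 arrays labelled Hspa4-/- than in the 2 wild-type arrays (difference 0.89, SE 0.10; limma, adjusted p = 0.00632). Gpx3 was 1.54-fold higher (0.62, SE 0.10; limma, adjusted p = 0.0199). With wild-type replicate 2 kept, the SEs on 5 arrays were 0.21 for Gstp1 and 0.26 for Gpx3. The fit leaves out the wild-type array nearest to the arrays labelled Hspa4-/- in both genes, so its p adds no support. These 2 of 46 genes made 4.35%, beside 4.32% of all genes called in that fit, so the share lay at the background. All genes with a higher level that passed made 3.14%. At an unadjusted p under 0.05 the fit held 15 of the 46 genes (32.6%), beside 20.4% of all genes.

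Gstp-ps, a pi-class pseudogene whose probes could read related pi-class transcripts, did not follow Gstp1 in wild type. It read 7.30, 7.50 and 7.11 on the arrays labelled Hspa4-/- and 7.21, 6.92 and 7.06 in wild type, with wild-type replicate 2 the lowest array (difference 0.24 on 6 arrays and on 5; limma, adjusted p = 0.457 on 6). Gstp3 ranged from 5.62 to 5.73 on the arrays labelled Hspa4-/- and from 5.76 to 5.84 in wild type, a difference of −0.10 (limma, adjusted p = 0.628), or −0.12 on 5 arrays.

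Of the alpha class, Gsta2 read 6.54, 6.24 and 6.23 on the arrays labelled Hspa4-/- and 6.54, 6.50 and 6.90 in wild type. Replicate 1 labelled Hspa4-/- lay among wild type, and the other 2 of its label lay below every wild-type array. The mean was 1.24-fold lower (difference −0.31, SE 0.12; limma, adjusted p = 0.375), and 1.33-fold lower on 5 arrays (−0.41, SE 0.12; limma, adjusted p = 0.156), the smallest adjusted p of the 46 genes in that fit. Without wild-type replicate 3 the difference on 6 arrays was −0.19. Gsta4, which clears the lipid aldehyde hydroxynonenal, differed by −0.16 and Gsta3 by −0.0044, and on 5 arrays by −0.21 and 0.00040.

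The 7 mu-class genes lie side by side on chromosome 3 in RefSeq's gene order. Their differences ran from −0.06 (Gstm3) to 0.19 (Gstm1), and none had groups that did not overlap. On 5 arrays they ran from −0.09 (Gstm7) to 0.25 (Gstm5). Gstm1 read 8.63, 8.85 and 8.62 on the arrays labelled Hspa4-/- and 8.28, 8.73 and 8.52 in wild type (difference 0.19, SE 0.11; limma, adjusted p = 0.591; 0.23 on 5 arrays). Wild-type replicate 2 was the highest wild-type array for Gstm1, Gstm2, Gstm4, Gstm5 and Gstm7, by 0.57 above the mean of the other 2 for Gstm7. Members of this class and of the pi and alpha classes are close in sequence, and whether probes were shared between them was not tested.

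The 4 theta-class genes also lie side by side, on chromosome 10. Gstt2 read 6.93, 7.10 and 6.93 on the arrays labelled Hspa4-/- and 6.81, 6.79 and 6.90 in wild type. All 3 arrays labelled Hspa4-/- lay above wild type, with a difference of 0.15 (SE 0.07; limma, adjusted p = 0.475), or 0.18 on 5 arrays. The other theta genes differed by −0.07 to 0.11, and by −0.13 to 0.05 on 5 arrays. Gsto1 of the omega class read 7.61, 7.86 and 7.82 on the arrays labelled Hspa4-/- and 7.68, 7.78 and 7.45 in wild type (difference 0.13; limma, adjusted p = 0.719), and Gsto2 differed by −0.07. On 5 arrays they differed by 0.20 and −0.03.

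Gstk1, the kappa-class enzyme of mitochondria and peroxisomes, read 7.44, 7.73 and 7.86 on the arrays labelled Hspa4-/- and 7.38, 7.59 and 7.53 in wild type. Replicate 1 labelled Hspa4-/- lay among wild type and the other 2 above it. The difference was 0.18 (SE 0.11; limma, adjusted p = 0.614), or 0.30 (SE 0.09; limma, adjusted p = 0.169) on 5 arrays. Gstz1, an enzyme of tyrosine breakdown, differed by 0.23 (limma, adjusted p = 0.641), or 0.33 on 5 arrays.

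**Figure D3:**
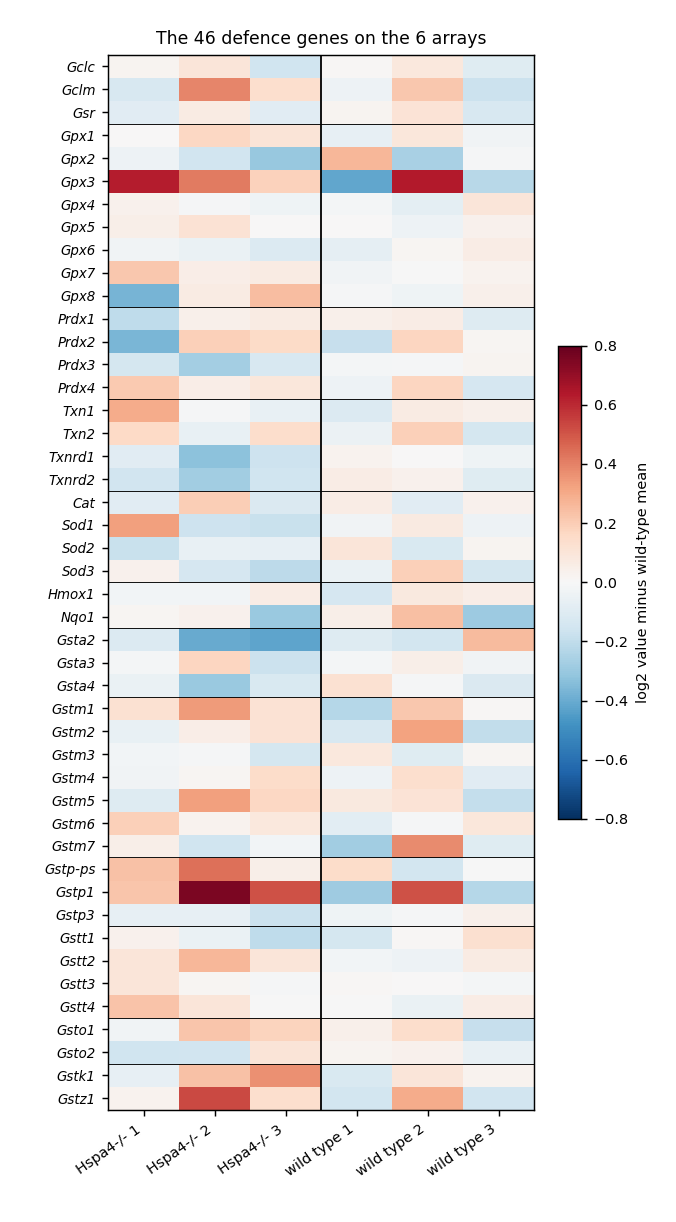
Log2 value of each of the 46 genes (rows, grouped by role in the order of the text) on each array (columns), minus the gene's wild-type mean. Red is higher and blue lower. The largest departures are in Gstp1 and Gpx3, which are red on wild-type replicate 2 as well as on the arrays labelled Hspa4-/-.

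Wild-type replicate 2 lay above both other wild-type arrays in 25 of the 46 genes (54.3%), beside 32.5% of all genes, and below both in 11 (23.9%), beside 38.2% of all genes. Relative to the other wild-type arrays it was higher by 0.96 for Gpx3, 0.77 for Gstp1, 0.57 for Gstm7, 0.49 for Gstm2 and 0.45 for Gstz1. The cardiac stress genes Nppa, by 0.39, and Acta1, by 0.58, were also higher there, and their part in the result was not tested. Of the arrays labelled Hspa4-/-, replicate 2 was the highest of all 6 arrays in 14 of the 46 genes and replicate 3 the lowest in 12. These 2 counts were not taken over all genes, so they cannot be called particular to the 46.

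In bulk ventricle, fewer cells of a type and less RNA per cell cannot be told apart. Macrophages, which carry heme oxygenase and phagocyte oxidase, were followed with 8 markers. Their summed linear level was 1399 to 1520 on the arrays labelled Hspa4-/- and 1626 to 1719 in wild type, without overlap. Means were lower for 7 of the 8, and 0 of 8 passed (limma). The 4 at an unadjusted p under 0.05 were Mrc1 (−0.50), Cd163 (−0.31), Csf1r (−0.23) and Adgre1 (−0.21), beside 5.53% of all genes lower at that p. Cd68, Lyz2, C1qa and C1qb differed by −0.07 to 0.02. The part of the macrophage markers in the differences described here was not tested. All 8 ventricular muscle markers were measured, and the lowest of them averaged 10.4 on the arrays labelled Hspa4-/- and 10.2 in wild type. Means were higher for 7 of the 8, and 0 passed (limma). Myl2 (0.28), Myl3 (0.24) and Tnni3 (0.23) had an unadjusted p under 0.05, beside 5.64% of all genes higher at that p. The 5 atrial markers had sums of 1043 to 3213 on the arrays labelled Hspa4-/- and 668 to 862 in wild type, without overlap. Nppa, named above as a stress gene, had the highest level of them and differed by 1.80. The rest of the atrial markers each overlapped between the labels: Myl4 differed by 0.23, Myl7 by 0.15, Sln by 0.03 and Fgf12 by 0.02. The sums are therefore no measure of atrial tissue apart from Nppa. The part of the ventricular and atrial markers in the differences described here was not tested. Of erythroid markers, which bear on Prdx2 and Cat, 5 of 8 were measured, and their sums of 364 to 390 on the arrays labelled Hspa4-/- and 375 to 419 in wild type overlapped. Hepatocyte and lung markers had sums that overlapped too, 298 to 332 and 250 to 273 on the arrays labelled Hspa4-/- against 314 to 334 and 256 to 285 in wild type. The table gives no background level, so no marker or enzyme can be called absent.

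Neighbouring redox lists, some of which share genes, were counted in the same fit. Of their genes, 0 passed on 6 arrays (limma; 2 to 6 genes of each list had an unadjusted p under 0.05) and Maob alone on 5. Over all genes 5.64% were higher and 5.53% lower at that unadjusted p, and 45.8% had a higher mean (43.3% on 5 arrays). List counts and medians are on 6 arrays unless 5 are named. Among the 15 genes that control NRF2, 11 had higher and 4 lower means, with a median of 0.07 on 6 arrays and on 5. Nfe2l2 itself read 9.07, 9.41 and 8.97 on the arrays labelled Hspa4-/- and 8.94, 9.16 and 9.0 in wild type, and Keap1 differed by −0.15 (limma, adjusted p = 0.663). Bach2, a repressor related to the NRF2 competitor Bach1, read 6.97, 7.06 and 7.28 on the arrays labelled Hspa4-/- and 6.61, 6.90 and 6.71 in wild type. It lay above wild type on all 3 arrays (difference 0.37, SE 0.10; limma, adjusted p = 0.247), and differed by 0.43 on 5 arrays. Cul3, the ubiquitin ligase scaffold that acts with KEAP1, differed by −0.19 (limma, adjusted p = 0.345).

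Of 25 other genes listed as NRF2 targets, 10 had higher and 15 lower means, with a median of −0.04 (9, 16 and −0.05 on 5 arrays). Txnip, described below, is in this list and had its highest difference (0.57, and 0.73 on 5 arrays). Whether NRF2 raises or lowers each listed gene was not considered. At an unadjusted p under 0.05, 2 of 25 were higher and 4 lower, beside 5.64% and 5.53% of all genes, and on 5 arrays 4 were higher and 3 lower, beside 8.55% and 6.36%. The higher ones were the glutathione conjugate pump Abcc1 (0.25) and the transketolase gene Tkt (0.21). The lower ones were the biliverdin reductase gene Blvra (−0.30), the NADPH-forming malic enzyme Me1 (−0.26), the pump Abcc4 (−0.20) and Ptgr1 (−0.17). All of them had an adjusted p between 0.245 and 0.423 (limma).

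NADPH supply, on which both reductases depend, had 7 genes with higher and 8 with lower means of 15 and a median of −0.01 (6, 9 and −0.02 on 5 arrays). At an unadjusted p under 0.05, 3 of 15 were lower and 0 higher, beside 5.53% and 5.64% of all genes. On 5 arrays 3 were lower and 1 higher, beside 6.36% and 8.55%. Idh1, the cytosolic isocitrate dehydrogenase, read 8.57, 8.47 and 8.55 on the arrays labelled Hspa4-/- and 8.94, 8.70 and 8.80 in wild type. All 3 arrays labelled Hspa4-/- lay below wild type, 1.22-fold lower on average (difference −0.28, SE 0.08; limma, adjusted p = 0.248), and differed by −0.30 on 5 arrays. The mitochondrial malic enzyme Me3 differed by −0.25 (limma, adjusted p = 0.298) and Me1 by −0.26 (limma, adjusted p = 0.332).

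The list of thioredoxin relatives, glutaredoxins and methionine sulfoxide reductases had 18 higher and 7 lower means of 25 and a median of 0.06, beside 45.8% of all genes with a higher mean. On 5 arrays it had 21 higher and 4 lower means and a median of 0.10, beside 43.3% of all genes with a higher mean. At an unadjusted p under 0.05, 5 genes were higher and 2 lower there, beside 8.55% and 6.36% of all genes. On 6 arrays 1 was higher and 1 lower. Glrx2, a mitochondrial glutaredoxin, read 11.71, 11.70 and 11.63 on the arrays labelled Hspa4-/- and 11.91, 11.82 and 11.83 in wild type. It lay below wild type on all 3 arrays (difference −0.17, SE 0.06; limma, adjusted p = 0.358). The other glutaredoxins of the list, Glrx5, Glrx3 and Glrx, differed by 0.20, 0.07 and 0.0013. On 5 arrays those genes differed by 0.30, 0.15 and 0.0092 (limma, adjusted p = 0.231, 0.715 and 0.971). Txndc5, an oxidoreductase of the endoplasmic reticulum, differed by 0.26 (limma, adjusted p = 0.408). Txnip, the inhibitor that binds thioredoxin, was picked for its size after its values were seen: it read 10.92, 12.03 and 10.80 on the arrays labelled Hspa4-/- and 10.58, 10.96 and 10.50 in wild type. Replicate 2 labelled Hspa4-/- stood far above the rest (difference 0.57, SE 0.28; limma, adjusted p = 0.492).

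For glutathione turnover and cysteine supply, 13 of 20 genes had higher means and the median was 0.04 (13 and 0.05 on 5 arrays). At an unadjusted p under 0.05, 4 of 20 were higher and 1 lower, beside 5.64% and 5.53% of all genes. On 5 arrays 2 were higher and 2 lower, beside 8.55% and 6.36%. Hagh, the glyoxalase that frees glutathione from its lactoyl adduct, differed by 0.32 and by 0.43 on 5 arrays (limma, adjusted p = 0.292 and 0.0746). Glo1, also a glyoxalase of this list, differed by −0.30 and by −0.49 on 5 arrays, with overlapping groups (limma, adjusted p = 0.683 and 0.289). The dipeptidase gene Dpep1 differed by 0.38, the 5-oxoprolinase gene Oplah by 0.20, the cystathionine lyase gene Cth by 0.15 and Chac2, which degrades glutathione, by −0.17 (limma, adjusted p between 0.293 and 0.433). Of 13 genes of microsomal transferases and related proteins, not all of them transferases, 8 had higher means. The median was 0.06 (8 and 0.02 on 5 arrays). Mgst1, a membrane-bound transferase and peroxidase, read 6.43, 6.17 and 6.20 on the arrays labelled Hspa4-/- and 6.67, 6.66 and 6.53 in wild type. It lay below wild type on all 3 arrays, 1.28-fold lower on 6 arrays and 1.35-fold lower on 5 (limma, adjusted p = 0.227 and 0.0581). Clic1, among the related proteins of that list, differed by 0.22 (limma, adjusted p = 0.408).

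**Figure D4:**
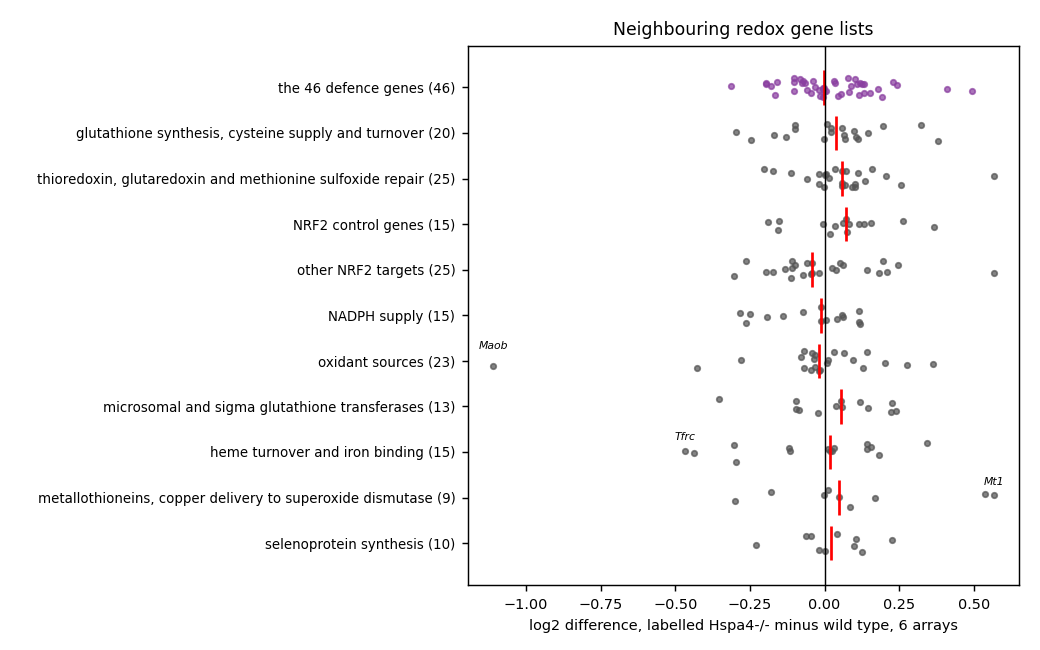
Log2 difference on 6 arrays, Hspa4-/- minus wild type (horizontal axis), for the 46 genes (top row, purple) and for each neighbouring redox list (grey), with the number of genes measured in brackets and the median as a red line. Medians lie between −0.04 and 0.07, and Maob is the gene farthest from 0.

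Among 23 genes of enzymes and channels that make oxidants, 10 had higher and 13 lower means, with a median of −0.02 (9, 14 and −0.03 on 5 arrays). Maob, the monoamine oxidase of the outer mitochondrial membrane that releases hydrogen peroxide, read 9.49, 8.37 and 8.12 on the arrays labelled Hspa4-/- and 9.90, 9.67 and 9.74 in wild type. Replicate 1 labelled Hspa4-/- stood close to wild type. The difference was −1.11 (SE 0.28; limma, adjusted p = 0.236) on 6 arrays and −1.52 (SE 0.10; limma, adjusted p = 0.00107) on 5, where it was 2.88-fold lower. Cybb, the catalytic subunit of the phagocyte NADPH oxidase, read 8.17, 8.26 and 8.15 on the arrays labelled Hspa4-/- and 8.82, 8.47 and 8.58 in wild type. It was 1.34-fold lower (difference −0.43, SE 0.09; limma, adjusted p = 0.210; −0.41 on 5 arrays), and the summed macrophage markers were lower on the same arrays; their part in it was not tested. Ero1a differed by −0.28, Romo1 by 0.28 and the endothelial nitric oxide synthase gene Nos3 by 0.36 (limma, adjusted p between 0.227 and 0.276). Of 6 endothelial markers 5 had higher means, with a median of 0.13 and Egfl7 at 0.33 (limma, adjusted p = 0.210), and their sums overlapped (3182 to 3704 on the arrays labelled Hspa4-/- and 3128 to 3257 in wild type). Their part in the value of Nos3 was not tested.

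The metallothioneins Mt1 and Mt2, metal-binding proteins that also scavenge radicals, had the highest differences of their list of 9, in which 6 means were higher and the median was 0.05 (6 and 0.03 on 5 arrays). Mt1 read 10.35, 10.72 and 10.28 on the arrays labelled Hspa4-/- and 9.67, 10.37 and 9.60 in wild type. Mt2 read 6.83, 7.08 and 7.00 on the arrays labelled Hspa4-/- and 6.34, 6.81 and 6.13 in wild type. In both, wild-type replicate 2 was again far above the other wild-type arrays. Mt1 differed by 0.57 (SE 0.19; limma, adjusted p = 0.319) and Mt2 by 0.54 (SE 0.15; limma, adjusted p = 0.256). Without Hspa4-/- replicate 1 they differed by 0.62 and 0.61. Without wild-type replicate 2, and with Hspa4-/- replicate 1 kept, both passed. Mt1 differed there by 0.81 (limma, adjusted p = 0.0445) and Mt2 by 0.73 (limma, adjusted p = 0.0382). That fit called 112 of all 20239 genes, against 0 with all 6 arrays. It leaves out the wild-type array nearest to the arrays labelled Hspa4-/- in both genes. The copper pump gene Atp7a differed by −0.30 (limma, adjusted p = 0.247).

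For heme turnover and iron, 9 of 15 means were higher and the median was 0.02 (8 and 0.02 on 5 arrays). Slc40a1, the iron exporter ferroportin, read 8.30, 8.14 and 7.83 on the arrays labelled Hspa4-/- and 8.48, 8.53 and 8.56 in wild type (difference −0.44, SE 0.11; limma, adjusted p = 0.229), and −0.54 on 5 arrays (limma, adjusted p = 0.0588). The transferrin receptor gene Tfrc differed by −0.47 (limma, adjusted p = 0.322). Without wild-type replicate 2 it differed by −0.68 and passed (limma, adjusted p = 0.0445), in a fit that called 112 of all 20239 genes. That array read 11.28 for Tfrc, against 11.91 and 11.90 on the other wild-type arrays. Of the heme pathway, Ppox differed by 0.34 and Cpox by −0.30 (limma, adjusted p = 0.393 and 0.465), both with overlapping groups. On 5 arrays they differed by 0.39 and −0.47 (limma, adjusted p = 0.289 and 0.0586). For selenoprotein synthesis, which makes the glutathione peroxidases and thioredoxin reductases that contain selenocysteine, 6 of 10 means were higher and the median was 0.02 (7 and 0.10 on 5 arrays). Secisbp2, which lets ribosomes read selenocysteine codons, read 7.08, 7.06 and 7.04 on the arrays labelled Hspa4-/- and 6.75, 6.91 and 6.84 in wild type. It lay above wild type on all 3 arrays (difference 0.23, SE 0.07; limma, adjusted p = 0.270; 0.21 on 5 arrays), and Sepsecs differed by −0.23 (limma, adjusted p = 0.423).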

How the data were processed

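Total RNA of heart ventricle was extracted with Trizol, converted to biotin-labelled cDNA with the Affymetrix WT Target Labeling Kit and hybridised to Mouse Gene 1.0 ST arrays, per the labels' protocols. The authors deposited log2 values for 21225 probe sets per array, and used R 2.13.0 and affy, per the submitters' processing notes. The methods of background correction, normalisation and summary are not stated in the labels. Array medians ran from 6.42 to 6.48 and SDs from 1.19 to 1.27. Signal over background is unknown, and 3 arrays per label limit the precision.

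By the platform annotation, 20239 probe sets carried 1 symbol, 0 several and 986 none. All 20239 were in RefSeq's gene table (GRCm38.p6). The 46 genes were found by symbol, and 41 of them lay above the lowest 25% of genes by mean value. Values were kept as deposited, with no filter, and tested in limma 3.58.1 (R 4.3.3; lmFit and eBayes, 2 groups), adjusted over 20239 genes with a threshold of 0.05. Differences are Hspa4-/- minus wild type. The fit was tried on simulated independent arrays with planted shifts larger than any difference of the 46 genes. That check does not bear on differences of their size. The genes, the lists and the form with 5 arrays were chosen with earlier results of these data known. Genes were named by rule: an unadjusted p under 0.05 on 6 arrays, the smallest p in each subfamily, a fixed set of 12, and in each list those passing or else the 2 with the smallest p. Other members with values, Nfe2l2, Keap1, Txnip, Cpox, Nppa, Acta1, Uty, Eif2s3y and the markers given by name were named after their values were seen. So were Glrx, Glrx3, Glrx5 and Glo1. Whether replicates came from separate litters is not stated. Same-numbered arrays of the 2 labels were not treated as pairs. Their deviations from the label means correlated at −0.17, 0.09 and −0.25. The highest value between labels was 0.33, for Hspa4-/- replicate 1 with wild-type replicate 3. Those arrays also had the highest medians (6.48 and 6.47) and the lowest SDs (1.20 and 1.19). With 3 arrays per label such values cannot decide whether arrays were paired. Pairs of arrays shared 11 to 30 identical values, so none was a copy. List genes without a probe set in the table were not analysed here.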

Additional observations from a re-analysis of the deposited data

How the results depend on the processing

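Alternatives were low-value filters, quantile normalisation, subtracted array medians, array weights, an intensity trend with a robust prior, the replicate number as a block, and leaving out each array. The count of genes passing among the 46 stayed at 0 in each of them on 6 arrays. On 5 arrays it stayed at 0 except in the fits leaving out 1 more array, where it ran from 0 to 2. With the replicate block the count was 0 in both forms. The block changed no call among the 46. By the labels, same-numbered arrays share only a number. The count at an unadjusted p under 0.05 was 12 with array weights (26.1%, beside 18.1% of all genes) and ran from 0 to 9 without 1 array on 6 arrays, and from 3 to 15 on 5. The median difference was 0.0466 with array weights on 6 arrays, and ran from −0.0100 to 0.0365 without 1 array on 6 and from −0.00143 to 0.0389 on 5. Hspa4 differed by −2.54 with array weights (limma, adjusted p = 0.0488) and by −2.89 to −1.54 without 1 array. Over all genes, 0 passed on 6 arrays (2261 at an unadjusted p under 0.05; limma), against 115 with array weights, 2 with either filter or with the block, 89 without Hspa4-/- replicate 1 and 112 without wild-type replicate 2. On 5 arrays 89 passed, against 36 with medians subtracted, 157 and 160 with the filters, 134 with the block and 321 with array weights, and 2 to 875 without 1 more array. With array weights Maob (−1.33) and Mgst1 (−0.41) passed on 6 arrays.

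Genes with differences near 0 changed sign. With array weights on 6 arrays Cat was at 0.0555, Gclc at 0.0195 and Gsr at 0.000342. With quantile normalisation Hmox1 was at −0.00125 on 6 arrays and Cat at −0.00279 on 5. With the replicate block Hmox1 was at −0.0482 on 5. Without 1 array, on 6 and then 5 arrays, Cat ran from −0.10 to 0.0544 and −0.12 to 0.20, Gclc ran from −0.0689 to 0.0596 and −0.16 to 0.0958, Gpx4 ran from −0.0406 to 0.0462 and −0.0597 to 0.0271, Gsr ran from −0.11 to 0.0150 and −0.0932 to 0.0646, Hmox1 ran from −0.0609 to 0.0456 and −0.0482 to 0.0607, and Nqo1 ran from −0.23 to 0.0381 and −0.30 to 0.032. Sod1 ran from −0.17 to 0.0808 on 6. The causes were not tested. A fit with 1 array labelled Hspa4-/- assumes that it varies as the wild-type arrays do.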
